A study of Mus musculus with 8 samples.

Results

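The genes of fatty acid oxidation were examined in cultured palatal mesenchyme with and without a floxed TGF-beta receptor gene deleted in the neural crest. The list holds 34 genes chosen by name and role: the carnitine shuttle, the enzymes of the mitochondrial and peroxisomal spirals, the electron transfer flavoproteins and a few regulators. Of these, 32 were measured by a probe set that names 1 gene, among 18193 genes tested. The probe set for Cpt1b also names other genes, and no probe set used here named Ucp2, so both are not analysed here. Mutant cells came from C57BL/6J embryos of genotype Tgfbr2 fl/fl; Wnt1-Cre, and control cells from Tgfbr2 fl/fl embryos without Cre, so the floxed alleles are common to both groups. The sample titles call the controls Tgfbr2 wildtype. Cells were dissected at embryonic day 13.5 and collected after 2 passages. Each genotype had 4 arrays, and the labels do not say that each culture came from its own embryo, so the spread behind every p-value may in part be technical. Wnt1-Cre acts in neural crest and its descendants, and cells of other origin in the culture keep the receptor. The study asked what loss of TGF-beta signalling does to the metabolism of these cells.

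Fatty acids are burned in rounds of dehydrogenation, hydration, a second dehydrogenation and thiolysis, each round releasing acetyl-CoA. Mitochondria handle most long, medium and short chains, which enter as carnitine esters, while peroxisomes shorten very long and branched chains with their own set of enzymes. Enzymes of the mitochondrial spiral pass electrons to the respiratory chain through the electron transfer flavoprotein, whereas peroxisomal oxidases pass them to oxygen. Fatty acid receptors of the PPAR family and their coactivator PGC-1alpha are known to switch on many of these genes in muscle, liver and brown fat.

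Several features of the arrays touch the values below, all given as log2 intensities. The brightest probe set for Tgfbr2 read 12.42 ± 0.47 in mutant and 12.04 ± 0.40 in control arrays (SD, n = 4 each; adjusted p = 0.568, limma on probe sets). No source used here places its probes inside or outside the deletion, so this does not check the genotype labels. On every array, 12 of 14 mesenchymal and 20 of 21 macrophage markers exceeded 6.93, the value of the median probe set. The macrophage marker mean ran from 11.06 to 13.18 in mutants and from 10.96 to 12.55 in controls; it was 13.14 to 13.18 in mutants 1, 2 and 3, 12.34 and 12.55 in controls 1 and 2, and 10.96 to 11.13 in the other 3 arrays. Markers of endothelium, muscle and fat cells had means between 5.52 and 7.24 on arrays of both genotypes. The mean of 7 epithelial markers was 6.77 to 6.93 in mutants and 6.58 to 6.72 in controls, without overlap. Of the 7 markers, 2 exceeded the median probe set on every array. Their differences were positive for 4 and negative for 3, with a median of 0.060 and a highest value of 1.47. The part of epithelial cells in the differences below was not tested. By the bioB spike added at hybridisation the arrays formed a first batch (replicates 1 and 2 of each genotype, 6.34 to 6.52) and a second (replicates 3 and 4, 8.24 to 8.79), though the labels name no batch. The array of control 3 alone had Xist above and the Y-linked genes below the median probe set.

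Loss of Tgfbr2 came with no fatty acid oxidation gene past the test. In limma with Benjamini-Hochberg adjustment over all genes, 0 of 32 members passed at 0.05, where 0.0879% of all genes did (0.066% lower and 0.022% higher in mutant cells). At an unadjusted p under 0.05 there were 3 members, which is 9.38% against 15.5% of all genes. Of them 1 (Acad11) was lower, where 9.69% of all genes were, and 2 (Crat and Acads) were higher, where 5.84% were. The genotypes did not overlap for 2 members, Acad11 and Crat, against 8.07% of all genes. Differences ran from -0.36 to 0.58 on the log2 scale, with a median of -0.041 against -0.0078 over all genes, and 19 of the 32 (59.4%) were negative against 51.7% of all genes. The median size of a difference, sign aside, was 0.15 for the 28 members above the median probe set on every array and 0.17 for the 11281 genes that bright. Of those 28 members 64.3% were negative, and of all genes that bright 58.3%. Limma's 95% interval lay within 1 of 0 for 31 of 32 members, the exception being Decr2, and within 0.5 of 0 for 18, so a doubling or halving lies outside the interval for all but that gene.

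**Figure D1:**
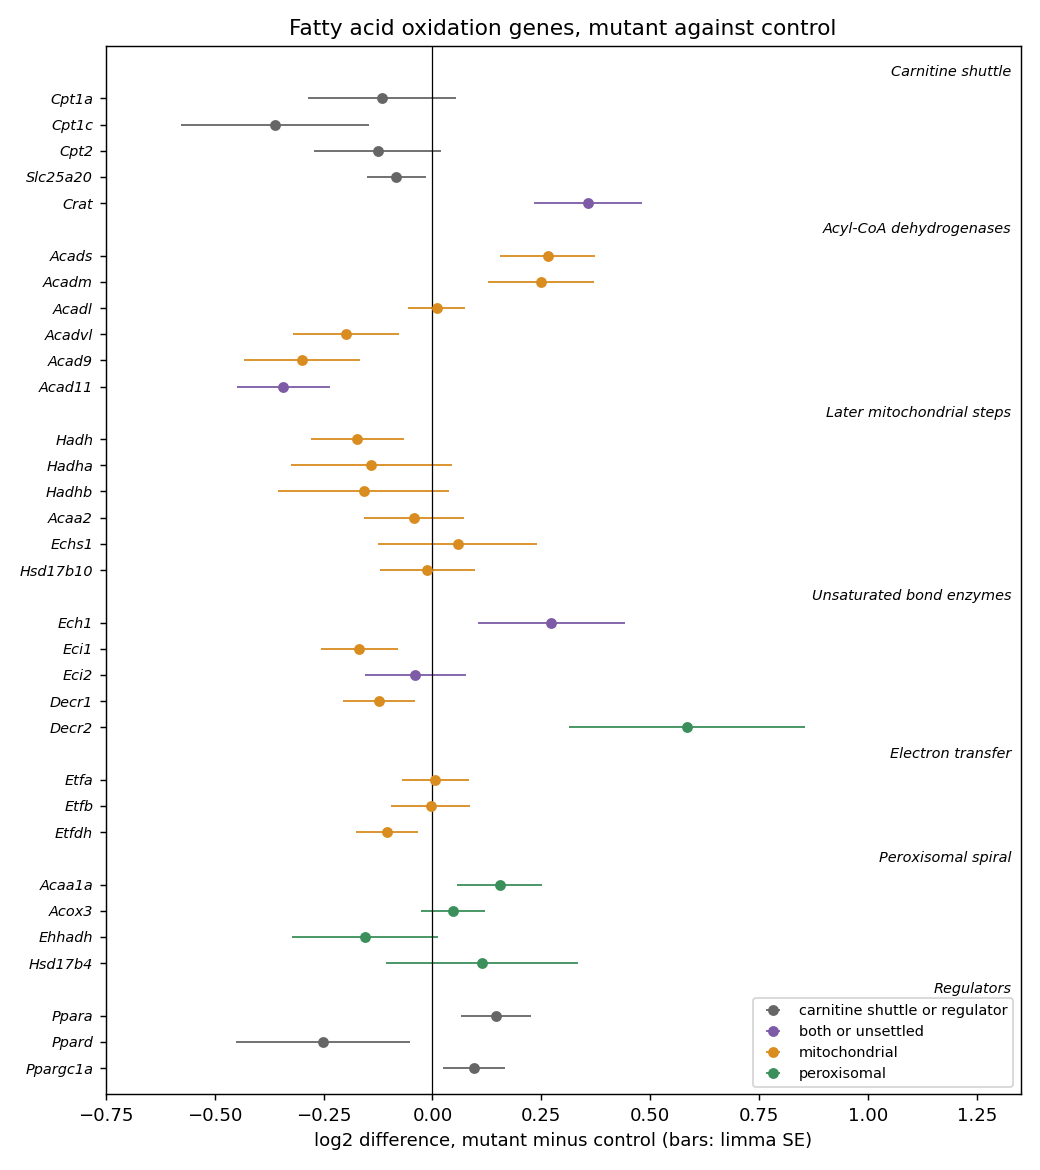
Log2 difference, mutant minus control, for each of the 32 measured genes (points) with limma's SE (bars), grouped by role and coloured by compartment. Differences lie between -0.36 (Cpt1c) and 0.58 (Decr2), and 0 of them passed the adjusted test.

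Leaving out 1 array changed how many members had an unadjusted p under 0.05. There was 1 when mutant 1, mutant 3 or control 1 was dropped, where 9.55%, 9.86% and 11.9% of all genes had such a p. There were 5 when mutant 2, mutant 4 or control 4 was, where 12.9%, 24.1% and 14.7% did. Members whose genotypes did not overlap numbered 5 without mutant 2 or mutant 4, against 12.2% and 24.1% of all genes, and 4 without control 2 or control 3, against 11.5% and 12.4%. The median ran from -0.11 without control 4 to 0.0020 without control 2. No array left out brought a member past the adjusted test.

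The carnitine shuttle carries long-chain acyl groups into mitochondria, and Cpt1c and Crat, whose roles differ, were listed with it. Of the 5 genes measured in this group, 4 had negative differences. All 5 exceeded the median probe set on every array, and 58.3% of all genes that bright were negative. Cpt1a, the outer membrane transferase that sets the rate of entry in most tissues, differed by -0.12 (SE 0.17). Its brightest probe set read 10.24, 10.02, 9.57 and 9.65 in mutants 1 to 4 and 10.18, 10.04, 10.03 and 9.70 in controls 1 to 4. The ranges overlapped, and further probe sets of Cpt1a gave -0.03 and -0.17. The brightest gave -0.24 without mutant 1, -0.017 without mutant 3 and -0.25 with the macrophage marker mean as a covariate. Cpt1c, the form of the endoplasmic reticulum best known from neurons, read 9.18, 9.44, 9.62 and 10.19 in mutants and 9.77, 9.80, 10.26 and 10.04 in controls. Mutants 1 to 3 lay below every control and mutant 4 did not. The difference was -0.36 (SE 0.22, adjusted p = 0.456 in limma), and it was -0.56 without mutant 4 (lowest adjusted p with 1 array left out 0.0725). Within the first hybridisation batch it was -0.47 (adjusted p = 0.0453 in limma over the 4 arrays of that batch). In that fit 2085 of 18193 genes passed at 0.05, and 1 of the 32 members. For Cpt1c the difference was -0.25 within the second batch, and -0.07 once the macrophage marker mean entered the fit as a covariate. Cpt2, the inner membrane transferase that hands the acyl group back to CoA, differed by -0.13 (SE 0.15). That value was -0.26 without control 4, -0.039 without control 2 and -0.27 with the macrophage covariate. Slc25a20, the translocase that swaps acylcarnitine for carnitine, differed by -0.083 (SE 0.07).

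Crat, which attaches short acyl groups to carnitine and works in mitochondria and peroxisomes, was the exception in this group. It read 10.03, 9.67, 10.14 and 9.70 in mutants and 9.39, 9.56, 9.53 and 9.64 in controls. The lowest mutant lay just above the highest control, and mutants 1 and 3 stood well above the rest. The mean was 9.89 ± 0.24 against 9.53 ± 0.11 (SD, n = 4), a difference of 0.36 (SE 0.12, 95% interval 0.07 to 0.64) or 1.28-fold, with adjusted p = 0.248 in limma. Within the hybridisation batches the values were 0.38 and 0.34, and with the macrophage covariate 0.32. Further probe sets of Crat gave 0.31 and 0.12, with overlapping genotypes for both.

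**Figure D2:**
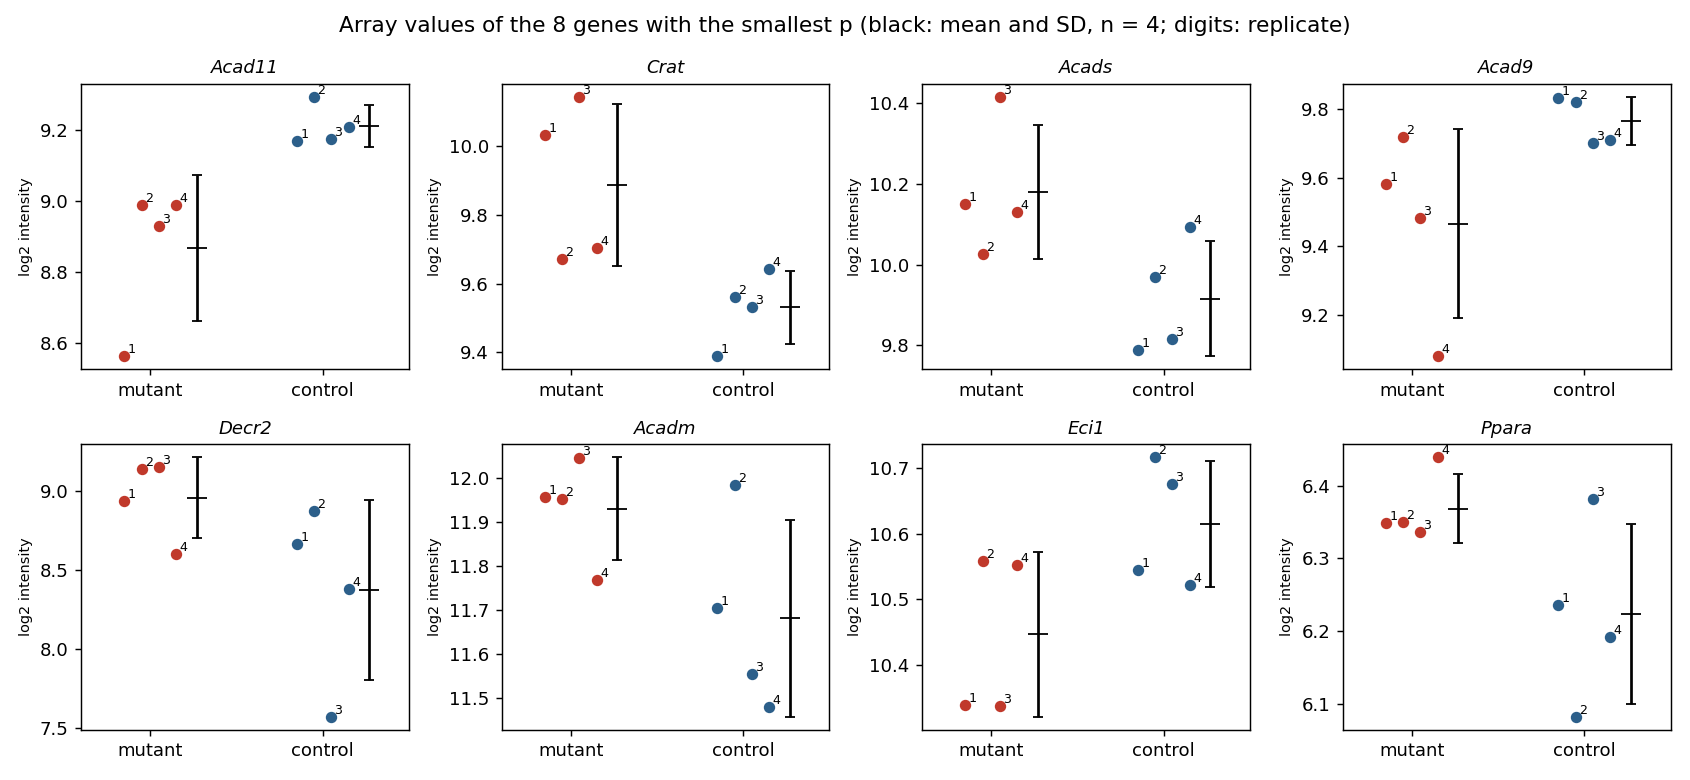
Log2 intensity on each array for the 8 members with the smallest adjusted p, with replicate numbers, and the mean and SD (n = 4) in black. Acad11 and Crat are the panels in which the genotypes do not overlap.

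The acyl-CoA dehydrogenases take the first step of the mitochondrial spiral, and each prefers a range of chain lengths. Acads, the short-chain enzyme, read 10.15, 10.03, 10.42 and 10.13 in mutants and 9.79, 9.97, 9.82 and 10.09 in controls. Only control 4 reached into the mutant range. Its difference was 0.26 (SE 0.11, adjusted p = 0.301 in limma), with 0.21 and 0.32 within the hybridisation batches and 0.26 with the macrophage covariate. Acadm, the medium-chain enzyme, read 11.96, 11.95, 12.04 and 11.77 in mutants and 11.70, 11.98, 11.55 and 11.48 in controls. Here control 2 lay among the mutants, and mutant 4 was the lowest mutant. Acadm differed by 0.25 (SE 0.12, adjusted p = 0.362 in limma), 0.11 and 0.39 within the batches, and 0.11 with the macrophage covariate.

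Enzymes for longer chains had differences near 0 or below it. Acadl, the long-chain enzyme, was nearly level at 0.0093 (SE 0.07), with every array between 12.28 and 12.43. Acadvl, the very-long-chain enzyme of the inner membrane, read 11.08, 11.23, 10.72 and 11.02 in mutants and 11.17, 11.29, 11.05 and 11.33 in controls, a difference of -0.20 (SE 0.12). The low reading of mutant 3 carried part of it: the difference was -0.10 without that array, and -0.075 and -0.32 within the batches. Acad9, which also helps assemble respiratory complex I, read 9.58, 9.72, 9.48 and 9.08 in mutants and 9.83, 9.82, 9.70 and 9.71 in controls. Its ranges met only at mutant 2, and mutant 4 was lowest by far. The difference was -0.30 (SE 0.13, adjusted p = 0.329 in limma), -0.17 without mutant 4, and -0.46 with the macrophage covariate (adjusted p = 0.107 in limma). A second probe set of Acad9 above the median probe set gave -0.33 (SE 0.28), with overlapping genotypes. On that probe set mutant 4 was the highest mutant (9.23), unlike on the brightest. The dimmest probe set gave 0.07.

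Acad11, a dehydrogenase of long-chain substrates, had the smallest adjusted p of all members. Its brightest probe set read 8.56, 8.99, 8.93 and 8.99 in mutants and 9.17, 9.29, 9.17 and 9.21 in controls. All mutants lay below all controls, with mutant 1 lowest. The mean was 8.87 ± 0.20 against 9.21 ± 0.06 (SD, n = 4), a difference of -0.34 (SE 0.11, 95% interval -0.59 to -0.10), 0.789 of the control level, with adjusted p = 0.216 in limma. A second probe set gave -0.49 (adjusted p = 0.148, limma on probe sets), again without overlap. Within the hybridisation batches the brightest probe set gave -0.45 and -0.23, with the macrophage covariate -0.31, and -0.24 without mutant 1.

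Because Acads and Acadm had positive and Acadvl and Acad9 negative differences, the mean of Acads and Acadm was set against the mean of Acadvl and Acad9 on each array. This summary was chosen after the values were seen and is given without a test. The choice of the 4 genes fixes its direction and favours a separation of the genotypes. The gap was 0.72, 0.52, 1.13 and 0.90 in mutants 1 to 4 and 0.24, 0.42, 0.31 and 0.27 in controls 1 to 4. With the brightest probe set of each gene every mutant lay above every control, with mutant 2 and control 2 the closest. The mean gap was 0.82 ± 0.26 against 0.31 ± 0.08 (SD, n = 4), and it differed by 0.29 and 0.73 within the hybridisation batches. On those probe sets mutant 4, with a macrophage mean of 11.06, and mutant 3, with 13.18, had the widest gaps. The part of macrophages in the gap was not tested. The separation depends on the probe set of Acad9. Its second bright probe set read 9.23 in mutant 4 and 8.56 in control 2, where the brightest read 9.08 and 9.82. Put in place of the brightest, it sets the gap of mutant 4 below that of control 2. None of the 4 genes passed the adjusted limma test alone.

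**Figure D3:**
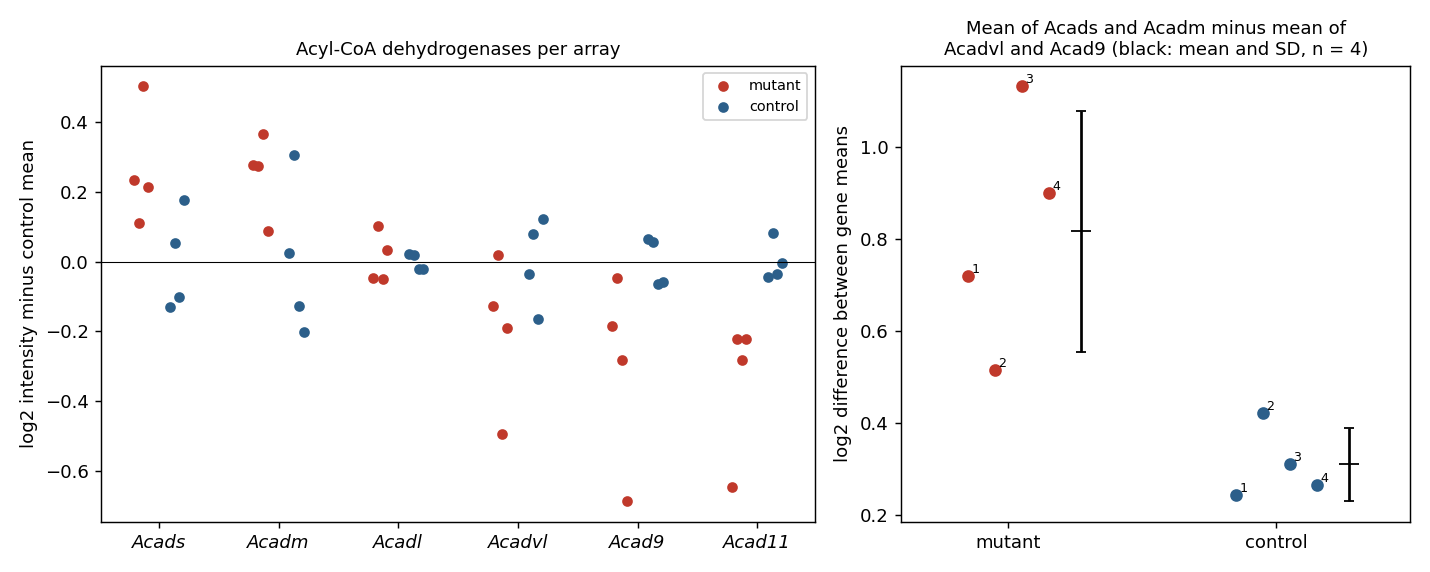
Left, log2 intensity of 6 acyl-CoA dehydrogenases on each array, minus the control mean of that gene; right, the mean of Acads and Acadm minus the mean of Acadvl and Acad9 on each array, with mean and SD (n = 4). On the right the mutants lie between 0.52 and 1.13 and the controls between 0.24 and 0.42. The genes on the right were chosen after their values were seen, and the brightest probe set of each was used.

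RefSeq promoter windows were matched for 27 of the 32 measured members. The 250 bases before the start site of 3 dehydrogenases are shown, since these lie at the upper and lower ends of the dehydrogenase differences. Coordinates are those of GRCm38.p6: chr5:115119347-115119596 on the minus strand for Acads, chr3:153944644-153944893 on the minus strand for Acadm and chr9:104063474-104063723 on the plus strand for Acad11. Each runs 5′ to 3′ in the direction of its gene. Capitals mark GC boxes (CCGCCC on either strand) and nuclear receptor half-sites (AGGTCA on either strand).
Acads: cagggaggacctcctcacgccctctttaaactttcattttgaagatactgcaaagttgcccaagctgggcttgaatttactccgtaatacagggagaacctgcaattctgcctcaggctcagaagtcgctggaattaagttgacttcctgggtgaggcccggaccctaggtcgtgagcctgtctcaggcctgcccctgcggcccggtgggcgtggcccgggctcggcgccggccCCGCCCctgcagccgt
Acadm: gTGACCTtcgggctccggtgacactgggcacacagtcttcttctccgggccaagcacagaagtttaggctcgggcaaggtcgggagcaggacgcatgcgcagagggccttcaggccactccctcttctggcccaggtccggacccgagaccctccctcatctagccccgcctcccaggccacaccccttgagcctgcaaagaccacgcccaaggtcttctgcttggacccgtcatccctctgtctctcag
Acad11: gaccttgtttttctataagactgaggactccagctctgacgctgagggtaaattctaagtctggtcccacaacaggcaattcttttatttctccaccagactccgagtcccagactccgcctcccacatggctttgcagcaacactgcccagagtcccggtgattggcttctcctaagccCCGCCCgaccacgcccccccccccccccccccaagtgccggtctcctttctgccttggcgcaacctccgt

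A GC box was present in 21 of the 27 windows (77.8%), against 48.3% of 18109 windows of tested genes, and a TATAAA on either strand in 0 of 27 against 8.81%. The windows of Hadha and Hadhb, both counted, share 228 bases, and the windows of tested genes were not matched for brightness. The half-site AGGTCA was found for Acadm, Acadvl, Cpt1a, Cpt1c and Echs1 (18.5% against 12.5%). Their genotype differences had both signs, from -0.36 for Cpt1c to 0.25 for Acadm. The full PPAR element, a direct repeat of AGGTCA with a single base between, which holds the half-site in both repeats, was found in 0 of 27 windows and 0.0387% of all, and the ERR element TCAAGGTCA, which ends in the same letters, in 0 and 0.32%. A match is a run of letters in this window and shows no binding.

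The later steps of the mitochondrial spiral had differences from -0.17 to 0.058, and 5 of 6 were negative. All 6 exceeded the median probe set on every array, and 58.3% of all genes that bright were negative. Hadha and Hadhb encode the alpha and beta subunits of the trifunctional protein, which carries out the last steps on long chains at the inner membrane. They are transcribed away from each other from start sites 273 bases apart on chromosome 5, and the 250 bases before Hadhb, chr5:30155003-30155252 on the plus strand of GRCm38.p6, lie between these sites. The sequence is shown because it fills most of the space between the start sites of both subunit genes, with GC boxes (CCGCCC on either strand) in capitals.
Hadhb: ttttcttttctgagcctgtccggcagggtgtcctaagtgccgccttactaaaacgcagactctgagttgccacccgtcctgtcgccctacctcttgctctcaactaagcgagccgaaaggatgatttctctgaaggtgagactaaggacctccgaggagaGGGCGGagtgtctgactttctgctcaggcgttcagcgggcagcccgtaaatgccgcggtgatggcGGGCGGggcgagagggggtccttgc

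Hadha read 9.85, 10.04, 10.47 and 10.47 in mutants and 10.16, 10.25, 10.75 and 10.24 in controls, a difference of -0.14 (SE 0.18). Hadhb read 12.00, 12.07, 11.65 and 11.18 in mutants and 12.04, 12.02, 11.68 and 11.79 in controls, a difference of -0.16 (SE 0.20) that was 0.02 without mutant 4. With the macrophage covariate the difference was 0.0092 for Hadha and -0.41 for Hadhb (adjusted p = 0.984 and 0.186 in limma). Genotypes overlapped for both. On average replicates 3 and 4 read higher than 1 and 2 for Hadha, though control 4 lay just below control 2, and lower for Hadhb. The second hybridisation batch differed from the first by 0.41 and by -0.46, with adjusted p = 0.0976 and 0.0763 in limma with genotype in the fit. A second bright probe set of Hadhb gave 0.06 between genotypes.

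The other enzymes of these steps had differences from -0.17 to 0.06. Hadh, the dehydrogenase for shorter hydroxyacyl chains, differed by -0.17 (SE 0.11), Acaa2, the mitochondrial thiolase, by -0.04 (SE 0.12) and Hsd17b10, which also serves isoleucine breakdown, by -0.01 (SE 0.11). Echs1, the short-chain hydratase, averaged 0.06 (SE 0.18), but the batches opposed each other. It read 11.80 and 11.78 in mutants 1 and 2 against 12.15 and 12.11 in controls 1 and 2, a difference of -0.34. In replicates 3 and 4 it read 12.01 and 12.08 in mutants against 11.86 and 11.33 in controls, a difference of 0.46. Whether genotype acts differently in the 2 batches was not tested.

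The electron transfer genes were the most level group. Etfa and Etfb, the flavoprotein subunits that accept electrons from the dehydrogenases, differed by 0.0068 (SE 0.08) and -0.0043 (SE 0.09). Etfdh, which passes those electrons to ubiquinone, differed by -0.10 (SE 0.07). Limma's 95% intervals ran from -0.17 to 0.18 for Etfa, from -0.21 to 0.20 for Etfb and from -0.27 to 0.06 for Etfdh.

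Of 5 enzymes that deal with double bonds of unsaturated fatty acids, 3 had negative differences and 2 positive ones. Decr2, the peroxisomal dienoyl-CoA reductase, had the largest difference of all members. It read 8.94, 9.14, 9.15 and 8.60 in mutants and 8.66, 8.87, 7.57 and 8.38 in controls. Mutants 1 to 3 exceeded every control, while mutant 4 fell among them and control 3 was far below the rest. The difference was 0.58 (SE 0.27, 95% interval -0.04 to 1.20, adjusted p = 0.345 in limma), and 0.32 without control 3. It was 0.27 and 0.90 within the hybridisation batches and 0.28 with the macrophage covariate. Decr1, its mitochondrial counterpart, differed by -0.12 (SE 0.08), with every array between 11.25 and 11.51.

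The isomerases and the dienoyl isomerase were mixed. Eci1, the mitochondrial enoyl-CoA isomerase, read 10.34, 10.56, 10.34 and 10.55 in mutants and 10.55, 10.72, 10.68 and 10.52 in controls, a difference of -0.17 (SE 0.09, adjusted p = 0.396 in limma). Mutants 1 and 3 lay below all controls and mutants 2 and 4 did not. Eci2, found in both compartments, differed by -0.04 (SE 0.12). Ech1, which moves double bonds in both compartments, read 11.88, 11.77, 11.91 and 11.63 in mutants and 11.72, 11.79, 11.57 and 11.01 in controls. Its difference of 0.27 (SE 0.17) was 0.10 without control 4.

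Peroxisomal enzymes had mostly positive differences and mitochondrial ones mostly negative. Of 5 peroxisomal enzymes 4 were positive, with a median of 0.11, and of 16 mitochondrial enzymes 11 were negative, with a median of -0.073, where 51.7% of all genes were negative. All 16 mitochondrial enzymes exceeded the median probe set on every array, and 58.3% of all genes that bright were negative. At an unadjusted p under 0.05 there were 0 of 5 and 1 of 16 (Acads), against 15.5% of all genes. With 1 array left out, the peroxisomal median lay between 0.01 (mutant 1 dropped) and 0.20 (control 2 dropped), and the mitochondrial one between -0.12 (control 4 dropped) and -0.02 (control 3 dropped). Assigning the 4 enzymes of both or unsettled compartments (Ech1, Eci2, Crat and Acad11) to either side gave a peroxisomal median of 0.11 again and moved the mitochondrial one from -0.073 to -0.041.

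Array by array, the peroxisomal mean relative to controls was 0.28, 0.25, 0.14 and -0.07 in mutants 1 to 4 and 0.16, 0.22, -0.23 and -0.15 in controls 1 to 4. The mitochondrial mean was -0.09, 0.0049, -0.03 and -0.09 in mutants and -0.0012, 0.09, 0.01 and -0.10 in controls. Both overlapped between genotypes. The peroxisomal mean was high on the 5 arrays with the most macrophage marker signal and low on the other 3, and the part of those cells in it was not tested. The gap between the compartments, peroxisomal minus mitochondrial, was 0.20 ± 0.14 in mutants against 0.00 ± 0.19 in controls (SD, n = 4), where the control mean is 0 by construction. It overlapped too, since mutant 4 (0.02) lay below controls 1 and 2 (0.16 and 0.14). The peroxisomal mean leaned on Decr2. Mutants and controls differed by 0.15 in the mean of all 5 enzymes, and by 0.04 in that of the 4 without Decr2. Without Decr2 control 3 lay at -0.09. With the macrophage covariate the peroxisomal median, unlike the means above, was 0.07 and the mitochondrial median -0.05. The 5 peroxisomal differences were then 0.28 (Decr2), 0.09 (Acaa1a), 0.07 (Acox3), -0.16 (Hsd17b4) and -0.38 (Ehhadh).

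**Figure D4:**
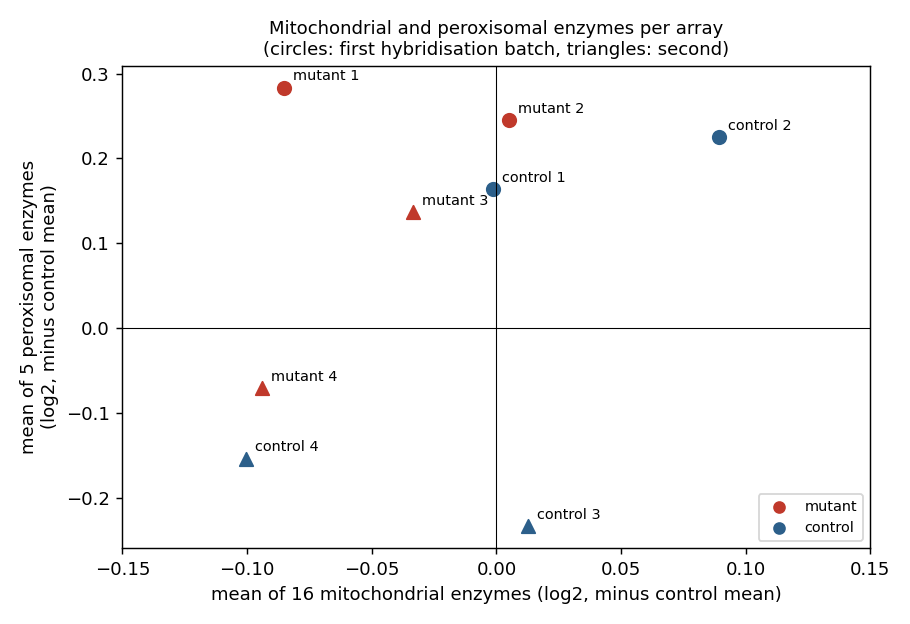
Mean of the 5 peroxisomal enzymes against the mean of the 16 mitochondrial enzymes on each array, in log2 units relative to the control mean. The peroxisomal axis runs from -0.23 (control 3) to 0.28 (mutant 1) and divides arrays of both genotypes; the mitochondrial axis runs from -0.10 to 0.09.

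Among single peroxisomal genes, Hsd17b4, the bifunctional hydratase and dehydrogenase, differed by 0.11 (SE 0.22) between genotypes and by -0.61 between hybridisation batches (adjusted p = 0.0224 in limma with genotype in the fit). It read 11.76, 11.72, 11.15 and 11.01 in mutants and 11.58, 11.57, 11.05 and 10.98 in controls. Replicates 1 and 2 were high in both genotypes and replicates 3 and 4 low. With the macrophage covariate the genotype difference was -0.16. Acaa1a, the peroxisomal thiolase, differed by 0.15 (SE 0.10), and Acox3, an oxidase of branched chains, by 0.05 (SE 0.07). Ehhadh, the other bifunctional enzyme, differed by -0.16 (SE 0.17) and exceeded the median probe set on 3 of 8 arrays. Its difference ran from -0.24 to -0.041 with 1 array left out, and was -0.38 with the macrophage covariate (adjusted p = 0.164 in limma).

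Hsd17b4 was the 1 member past the adjusted test between hybridisation batches, 3.12% of the members against 3.19% of all genes. For 17 of 32 members the batch difference was larger than the genotype difference, as it was for 55.1% of all genes. The median size was 0.17 between batches and 0.14 between genotypes. Replicates 1 and 2 of both genotypes also carried high macrophage marker means (12.34 to 13.15), so batch and these markers move together on 7 of the 8 arrays, mutant 3 being the exception.

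**Figure D5:**
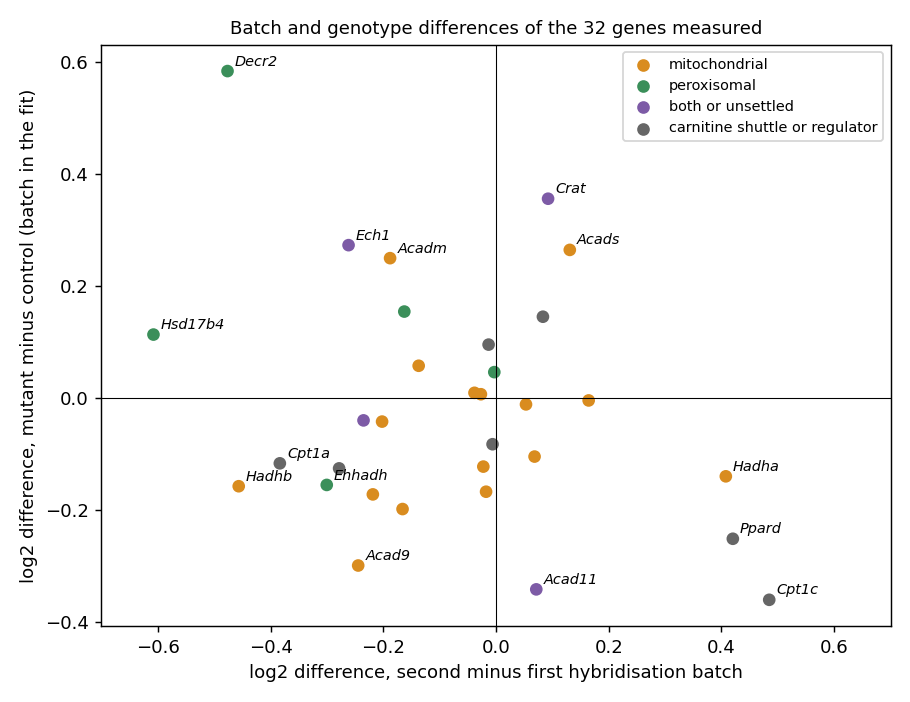
Log2 difference between genotypes against the difference between hybridisation batches for each of the 32 genes, from 1 limma fit with both terms. Points reach -0.61 (Hsd17b4) and 0.48 (Cpt1c) along the batch axis, and -0.36 (Cpt1c) and 0.58 (Decr2) along the genotype axis.

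The measured regulators gave little signal. Ppara, the receptor that drives fatty acid oxidation in liver, read 6.35, 6.35, 6.34 and 6.44 in mutants and 6.24, 6.08, 6.38 and 6.19 in controls, below the median probe set on every array. Only control 3 reached the mutant range, and the difference was 0.15 (SE 0.08, adjusted p = 0.422 in limma). Further probe sets gave -0.10 and 0.12. Ppargc1a, the PGC-1alpha coactivator, was below the median probe set on every array with its brightest probe set and differed by 0.10 (SE 0.07). Ppard, the widely expressed family member, read 7.84, 8.05, 8.21 and 8.51 in mutants and 8.21, 8.17, 8.93 and 8.31 in controls. Its difference was -0.25 (SE 0.20), -0.08 without control 3 and -0.03 with the macrophage covariate. A further probe set of Ppard, also above the median probe set on average, gave 0.025 (SE 0.08).

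Lists of surrounding genes were read against the same shares, 9.69% of all genes lower and 5.84% higher at an unadjusted p under 0.05. Of 20 other peroxisomal genes measured, 0 passed the adjusted limma test, 2 were lower and 0 higher at that level, and 11 had positive differences, with a median of 0.022. The 3 with the smallest adjusted p were all lower. Pecr, a peroxisomal enoyl-CoA reductase, read 8.57, 8.79, 8.88 and 8.87 in mutants and 9.28, 9.24, 9.28 and 9.36 in controls. All mutants lay below all controls, by -0.51 (SE 0.09, adjusted p = 0.113 in limma), with -0.58 and -0.45 within the batches. Amacr, the racemase that readies branched chains, differed by -0.74 (SE 0.27, adjusted p = 0.259 in limma), and the gene Pex19, whose product brings membrane proteins to peroxisomes, by -0.27 (SE 0.13).

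Of 18 genes for uptake, activation and carnitine supply, 0 passed, 0 were lower and 1 was higher at an unadjusted p under 0.05, and 11 had positive differences, with a median of 0.058. Acsl5, an acyl-CoA synthetase, differed by 0.65 (SE 0.24) and the fatty acid translocase gene Cd36 by 0.92 (SE 0.48). Those values were 0.30 and 0.28 with the macrophage covariate. Acsf3, the mitochondrial malonyl-CoA synthetase, differed by -0.16 (SE 0.07). Of 15 genes for ketone bodies and branched or short chains, 0 passed, 0 were lower and 1 was higher at that level, and 10 had positive differences, with a median of 0.072. Bdh1, the ketone body dehydrogenase, differed by 0.53 (SE 0.20), with 0.87 and 0.20 within the hybridisation batches. The methylmalonyl-CoA epimerase gene Mcee differed by 0.46 (SE 0.23), and by 0.13 with the macrophage covariate. Acat1, the mitochondrial acetoacetyl-CoA thiolase, differed by -0.18 (SE 0.10), and by -0.29 with that covariate.

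Of 20 PPAR, AMPK and coactivator genes, 0 passed, 3 were lower and 0 higher at an unadjusted p under 0.05, and 11 had negative differences, with a median of -0.019. Angptl4, a lipase inhibitor and known PPAR target, read 8.24, 8.21, 7.61 and 10.82 in mutants and 10.30, 10.02, 11.13 and 10.13 in controls. Mutants 1 to 3 lay far below every control, and mutant 4 lay among the controls. The difference was -1.67 (SE 0.65, adjusted p = 0.278 in limma), and -0.84 with the macrophage covariate. The coactivator gene Pprc1, related to Ppargc1a, differed by -0.33 (SE 0.09, adjusted p = 0.189 in limma) without overlap, and Lpin1, a phosphatidate phosphatase and coactivator, by -0.39 (SE 0.16).

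Of 29 further probe sets for 19 members, 20 had the sign of the brightest one, including 14 of the 16 above the median probe set. At an unadjusted p under 0.05 there was 1, that of Acad11, and 0 passed the adjusted limma test on probe sets. In bulk cultures, fewer cells of a type and less RNA per cell cannot be told apart.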

How the data were processed

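Total RNA from 8 cultures was profiled on Affymetrix arrays, per the labels' protocols. What the authors deposited is 1 log2 intensity for each probe set, computed with RMA (version not given in the sources used here) per the submitters' processing notes. They ran from 3.21 to 15.18 and were used as deposited. Samples were grouped by title.

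Symbols came from a platform table, updated by Entrez identifier through RefSeq names (34741 of 34945 single-symbol probe sets matched); 64 array controls, 932 probe sets with several symbols and 9160 unlisted ones were left out. The brightest probe set on average stood for each gene. The test was limma 3.58.1 (R 4.3.3; lmFit and eBayes, two-sided), mutant against control, over 18193 genes, threshold 0.05 after Benjamini-Hochberg adjustment, and the procedure was tested on simulated data. SE is limma's moderated error.

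The members, lists and most alternatives were chosen with earlier results of these data known, so no test over a list is given. Values are given array by array for members without overlap and the 8 with the smallest p, and for others where the text turns on single arrays; those others, and the dehydrogenase gap, were picked after their values were seen. From each surrounding list the 3 genes with the smallest p are named. Enzyme compartments and roles are textbook assignments. Protein sequences were not used here. Promoter windows are RefSeq's for GRCm38.p6; the array values carry no build. Same-numbered samples did not deviate together in every pair (correlations 0.47, 0.42, -0.09 and 0.37), so numbers were not treated as pairs.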

Additional observations from a re-analysis of the deposited data

Results flagged for a closer look

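In 70 sets of 4 arrays (each measured member and 3 means over genes, by genotype), the highest or lowest array stood apart from the other 3 by more than Dixon's critical value in 4 cases; chance flags about 1 in 20. Acad11 in mutant 1 read 8.56, against 8.93 to 8.99 in the other mutants. Hadha in control 3 read 10.75, against 10.16 to 10.25 in the other controls. Decr1 in control 1 read 11.34, against 11.47 to 11.50. Ppara in mutant 4 read 6.44, against 6.34 to 6.35, all below the median probe set.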

How the results depend on the processing

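The 21 alternatives concerned scaling, the probe set standing for a gene, the filter on dim genes, the error model, the batches, the macrophage covariate and single arrays left out; averaging controls 1 and 2, the closest arrays, was chosen after seeing the data. With 4 arrays a genotype, small differences stay within the error. The count of members past the threshold was 0 throughout, except 1 (Cpt1c, -0.47) within the first hybridisation batch, and it was 0 whichever array was left out. A further split, called the labelling batch, was read from the poly-A controls, low on mutants 3 and 4 and control 3; no label names it. At an unadjusted p under 0.05 the member count was 5 when quantile normalized again (14.4% of all genes), 7 with array weights (27.9%), 7 with the hybridisation batch (22.1%), 6 with the labelling batch (21.8%) and 7 with the macrophage mean in the fit (17.4%), 8 and 0 within the batches (28.6% and 5.21%), and 1 to 5 with 1 array left out (9.55% to 24.1%). Members without overlap numbered 19 and 14 within the batches, where 2 arrays meet 2 and 60.2% and 37.7% of all genes do not overlap, and 2 to 5 with 1 array left out (9.12% to 24.1%). The count over all genes was 16. It became 1470 with array weights, 0 with the replicate block, 2 with the labelling batch, 47 with the macrophage mean, 2085 and 0 within the batches, 0 with the closest arrays averaged and 0 to 1316 with 1 array left out. Medians ran from -0.11 to 0.0020 for all members, -0.12 to -0.02 for mitochondrial and 0.01 to 0.20 for peroxisomal enzymes with 1 array left out. The replicate block changed no member's call.

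Signs held in all alternatives for 17 members. The others changed sign as follows, and the cause was not tested. Etfb became 0.020 when quantile normalized again. Acadl became -0.022 and Etfa -0.025 with arrays centred on their medians. With probe sets averaged, Acadl gave -0.023 and Ppargc1a -0.0042. Array weights gave -0.00095 for Acadl, -0.19 for Echs1, -0.013 for Etfa and 0.022 for Etfb. The labelling batch gave -0.0064 for Etfa. The macrophage mean gave 0.0092 for Hadha, -0.018 for Echs1, -0.037 for Etfa, 0.042 for Etfb, -0.16 for Hsd17b4 and 0.019 for Hsd17b10. The first batch gave 0.022 for Cpt1a, 0.0079 for Hadhb, -0.34 for Echs1, -0.037 for Etfa and 0.00066 for Etfb. The second gave 0.0047 for Cpt2, 0.022 for Eci2, -6.6e-05 for Acox3, 0.021 for Ehhadh and 0.13 for Hsd17b10. Averaging the closest arrays gave 0.0096 for Eci2 and 0.0035 for Hsd17b10. With 1 array left out, Acadl ran from -0.021 to 0.029, Hadhb from -0.27 to 0.024, Acaa2 from -0.12 to 0.027, Echs1 from -0.12 to 0.15, Eci2 from -0.12 to 0.032, Etfa from -0.042 to 0.032, Etfb from -0.057 to 0.048, Hsd17b4 from -0.0028 to 0.25 and Hsd17b10 from -0.095 to 0.043.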
